A study of Debaryomyces hansenii with 6 samples.

Results

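A set of 60 loci of the salt-tolerant yeast Debaryomyces hansenii is described here, those whose transcripts stood above the time-0 control after 3 h in 2 M NaCl and near it after 0.5 h and 6 h. On 6 Agilent 2-colour arrays RNA of cells kept in the salt for 0.5, 3 or 6 h was compared with RNA of a control aliquot taken at time 0 from cells in early log phase in rich glucose medium (YPD) at 30 °C. Each time had 2 arrays with different biological replicates of both RNAs, and the dyes were exchanged between them (Cy5 on the salt sample in replicate 1, Cy3 in replicate 2), so that dye and replicate are the same split. Cells grown without salt to 0.5, 3 or 6 h were not among the samples, and a change with time in culture cannot be told apart from a change with salt. The loci were chosen from the measured ratios: the mean log2 ratio of stressed over control RNA had to lie above -0.4 and below 0.5 at 0.5 h, at 0.7 or more at 3 h, within 0.35 of 0 at 6 h, and above 0 on both 3 h arrays. This picked 60 of the 6320 genes on the array, each measured by 2 probes, and all 60 passed the filter on dim genes that 94.4% of all genes passed. Every ratio at 0.5, 3 and 6 h entered the choice, so those ratios are given as a description and support no test.

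Yeasts meet high external salt in stages. Water leaves the cell, a MAP kinase cascade known as the HOG pathway is activated in Saccharomyces cerevisiae, glycerol is made and kept as a compatible solute, and sodium is pumped out or stored in the vacuole. Many transcripts of that response are transient in S. cerevisiae and return toward their earlier level once the cell has adapted, while D. hansenii, found in sea water and brined food, grows at salt levels that stop most yeasts. The array files describe every gene as unknown and the reference table gives no symbol for any of the 5348 genes it could name, so no function is attached to the loci below and 0 members could be placed in the 16 pathway lists. Of the 60 loci, 52 had a locus name, 86.7% against 84.6% of all genes.

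The choice is narrow within the 3 h response. A mean log2 ratio of at least 0.7 at 3 h was reached by 351 genes, and 344 of them were positive on both 3 h arrays. Of these, 131 had already reached the upper bound at 0.5 h and 6 lay at or below the lower one. Among the 207 genes within the 0.5 h bounds, 146 were still at 0.35 or more at 6 h, 1 was at -0.35 or less, and the other 60 are the loci described. Within the 0.5 h bounds, genes at or beyond the upper 6 h bound thus outnumbered those inside it.

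The 60 loci had modest 3 h means, with a median of 0.79 on the log2 scale and a range from 0.70 to 1.31. The 146 genes still higher at 6 h had a median 3 h mean of 0.93 and reached 2.54. Only 7 of the 60 had a 3 h mean of 1 or more, 1 of them without a locus name, and 2.74% of all genes did. At 0.5 h the median of the 60 means was 0.22 and at 6 h it was 0.24, against -0.00 and -0.01 over all genes. The 0.5 h mean was above 0 for 55 of the 60 loci (49.4% of all genes) and the 6 h mean for 56 (49.3%). A 6 h mean of at least 0.2 was found for 40 of the 60, against 23.0% of all genes, and a 0.5 h mean of at least 0.2 for 35, against 16.3%. The wording "raised at 3 h only" thus goes beyond the values: at the other times most of these loci lay a little above the control, inside the bounds of the choice.

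Single arrays showed the same lean. The 0.5 h ratio was above 0 for 57 loci in replicate 1 (48.8% of all genes) and for 38 in replicate 2 (50.6%), and the 2 arrays had opposite signs for 23 (39.1%). The 6 h ratio was above 0 for 50 loci in replicate 1 (51.0%) and for 52 in replicate 2 (50.7%), with opposite signs for 16 (29.8%). At 6 h the bound of 0.35 on the mean was also kept by the single array for 46 loci in replicate 1 (74.7%), for 42 in replicate 2 (68.2%) and for 28 on both (59.7%). For the others at least 1 of the 6 h arrays lay outside it, and the mean of the pair brought the locus inside.

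**Figure D1:**
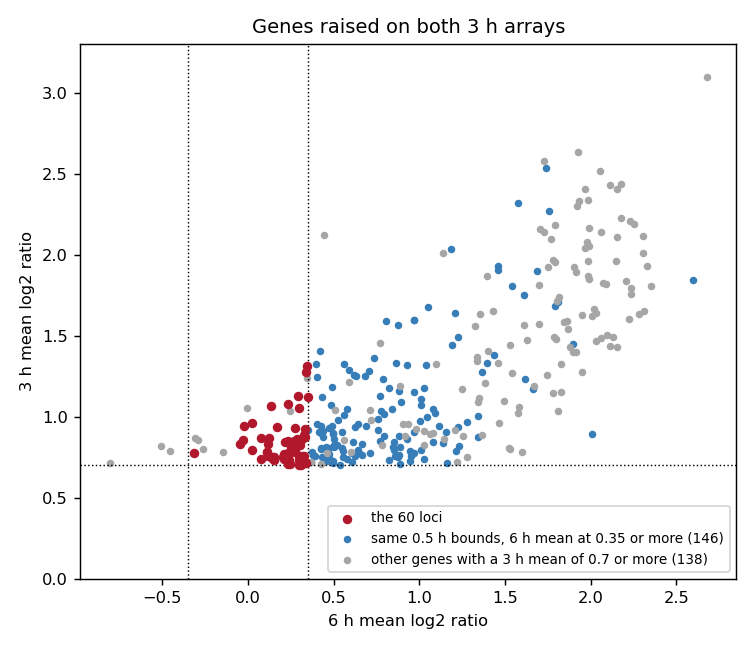
Mean log2 ratio at 3 h (vertical) against that at 6 h (horizontal) for the genes with a 3 h mean of 0.7 or more and positive values on both 3 h arrays; dotted lines mark 0.7 at 3 h and 0.35 either side of 0 at 6 h. The 60 loci (red) crowd toward the right-hand bound and the lower one, the 146 genes that met the other conditions but stood at 0.35 or more at 6 h are blue, and the 138 others are grey.

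The 2 replicates gave different courses. In replicate 1 the 60 loci had median log2 ratios of 0.36, 0.50 and 0.18 at 0.5, 3 and 6 h. In replicate 2 the medians were 0.07, 1.12 and 0.23. The peak at 3 h was thus tall in replicate 2 and shallow in replicate 1, where the 0.5 h ratios were close to the 3 h ratios. Within replicate 2 all 60 loci were higher at 3 h than at 0.5 h, by a median of 1.00, and 50.3% of all genes were. Within replicate 1 it was 41 of 60, by a median of 0.11, and 52.8% of all genes. The comparison of 3 h with 6 h was closer between replicates: 60 of 60 loci were higher at 3 h in replicate 2, by a median of 0.90 (50.8% of all genes), and 57 of 60 in replicate 1, by a median of 0.27 (49.4%).

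**Figure D2:**
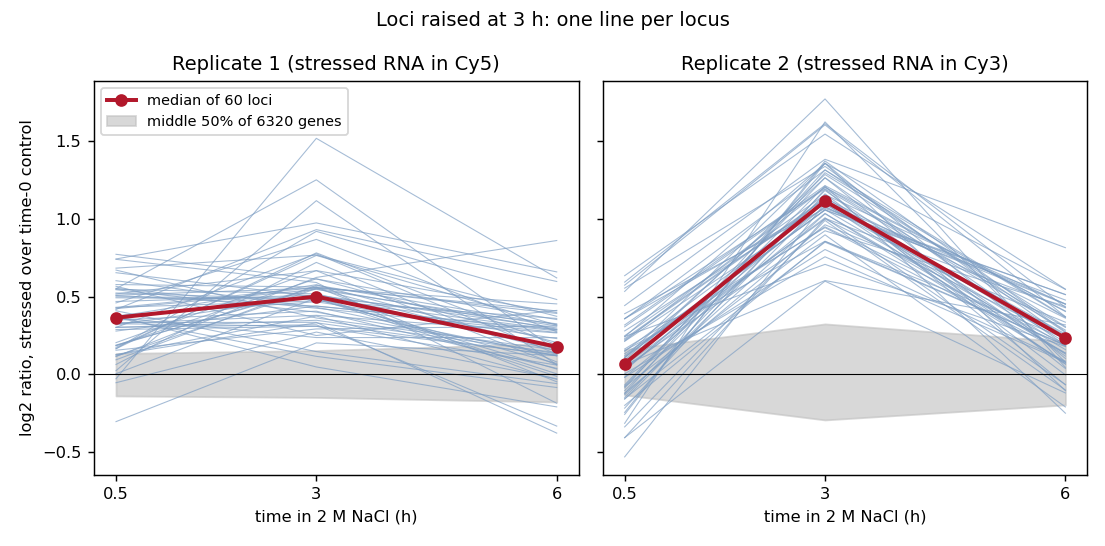
Log2 ratio of stressed over time-0 control RNA (vertical) against time in 2 M NaCl in h (horizontal), 1 panel per replicate and 1 thin line per locus, with the median of the 60 loci in red and the interquartile range of all genes shaded. The median reaches 1.12 at 3 h in replicate 2 and 0.50 in replicate 1, where it starts from 0.36.

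The 3 h array of replicate 1 differed from the other arrays in its controls. The red over green log2 ratios of its spike-in RNAs spanned 1.66, and those of the other arrays spanned 3.18 to 4.18. The part of this narrower spike-in span in the shallow peak was not tested. Over all genes its log2 ratios had a SD of 0.38, between the 0.30 and 0.33 of the 0.5 h arrays and the 0.41 and 0.55 of the 6 h arrays, and the widest spread was the 0.61 on the 3 h array of replicate 2. On the 3 h array of replicate 2 the median control signal was 364, and the control medians of the other 5 arrays lay between 112.5 and 215, in either dye.

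At 3 h replicate 2 was above replicate 1 for 55 of the 60 loci, against 51.0% of all genes. The exceptions were DEHA2F03828g, DEHA2C02574g, DEHA2C05852g, DEHA2B09438g and 1 gene without a locus name, which are named because of these values. For most loci the order at 0.5 h was the other way, with replicate 1 above replicate 2 for 46 of the 60 (48.2% of all genes). At 6 h replicate 2 was the higher one for 34 (49.8%). The single-array value at 3 h was 0.7 or more for 58 loci in replicate 2 (11.2% of all genes) and for 12 in replicate 1 (3.01%), and for 10 it was so on both arrays (2.41%). The SD between the 2 arrays had a median of 0.43 at 3 h, 0.29 at 0.5 h and 0.16 at 6 h for the 60 loci, against 0.19, 0.12 and 0.13 for all genes.

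**Figure D3:**
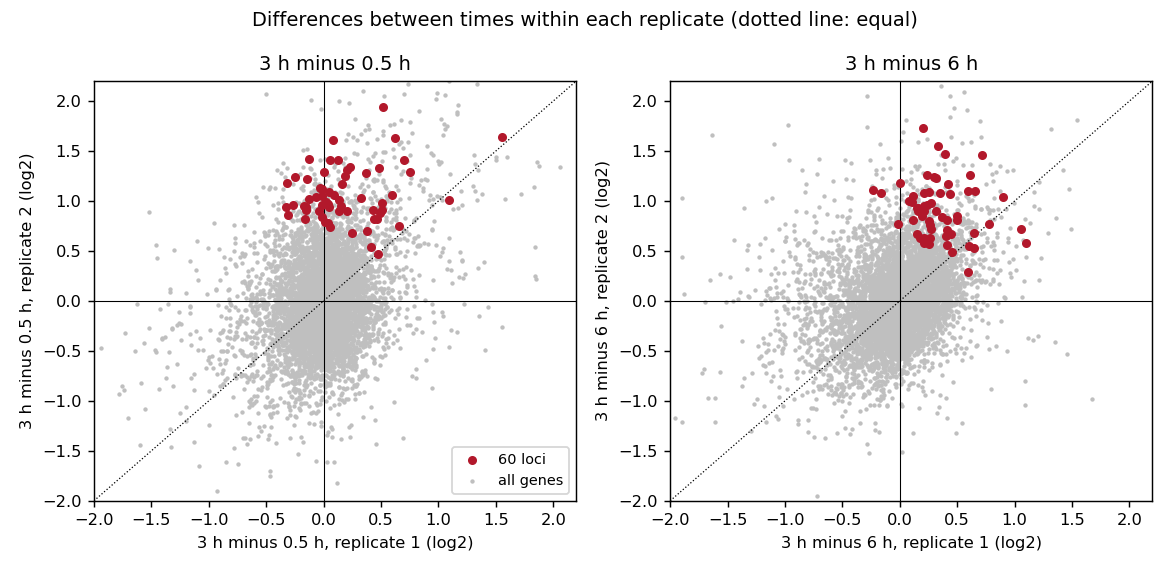
Difference between times within replicate 2 (vertical) against that within replicate 1 (horizontal), in log2 units, for the 60 loci (red) and all genes (grey); the left panel shows 3 h minus 0.5 h and the right panel 3 h minus 6 h. Axes run from -2 to 2.2, which leaves 24 and 26 genes outside, and the red points lie above 0 on the vertical axis in both panels while 19 of them lie at or below 0 on the horizontal axis of the left one.

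Single arrays separated 3 h from the other times for part of the loci. Both 3 h arrays lay above all 0.5 h and 6 h arrays for 32 of the 60, against 9.38% of all genes. Against 0.5 h alone this held for 37 (20.5% of all genes) and against 6 h alone for 47 (19.9%). For the remaining loci at least 1 array of another time overlapped with the 3 h arrays. Since the choice used these arrays, a raised share was bound to appear and is read no further.

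DEHA2F03828g had the highest 3 h mean, 1.31 ± 0.30 (SD, n = 2), a 2.48-fold ratio of stressed over control RNA. Its log2 ratios were -0.03 and -0.53 at 0.5 h, 1.52 and 1.10 at 3 h, and 0.62 and 0.07 at 6 h in replicates 1 and 2. The 3 h arrays lay above all others, and the 6 h mean of 0.34 was just inside the bound. This is a very bright locus, and the raw spots do not show the same course: on the 3 h array of replicate 2 its brighter probe read 19013 in the stressed channel and 47518.5 in the control channel before normalization. With the scanner software's processed signals, which are already dye-normalized, the 3 h values were 1.41 and 1.21. With each array centred on its median in place of loess, the locus read 0.51 and -0.19 at 3 h and 1.28 and 1.02 at 6 h, so its 3 h mean dropped to 0.16 and it was then higher at 6 h than at 3 h. A probe of this locus also shares at least 25 bases with a probe of another gene, as for 1.41% of all genes, and its ratio is uncertain on both counts.

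DEHA2B01100g followed with a 3 h mean of 1.28 ± 0.49 (SD, n = 2), or 2.43-fold. Its arrays read 0.93 and 1.63 at 3 h, against 0.42 and -0.32 at 0.5 h and 0.60 and 0.08 at 6 h. The lower 3 h array was 0.33 above the highest array of the other times. It is the longest of the named loci, with a gene length of 5574 bases in the reference. DEHA2C02574g read 1.25 and 1.00 at 3 h, 0.55 and -0.41 at 0.5 h, and 0.15 and 0.43 at 6 h. Its 3 h mean was 1.13 ± 0.18 (SD, n = 2), and the spread between its 0.5 h arrays was the wider one. DEHA2C08690g had 0.97 and 1.27 at 3 h, beside 0.74 and -0.07 at 0.5 h and 0.66 and 0.04 at 6 h. In replicate 1 it changed little between the 3 times, and in replicate 2 it stood out at 3 h.

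DEHA2G01826g and DEHA2G03410g were highest at 3 h in both replicates. For DEHA2G01826g the arrays gave 0.78 and 1.37 at 3 h, 0.16 and -0.26 at 0.5 h, and 0.19 and 0.27 at 6 h. Its 3 h mean was 1.08 ± 0.42 (SD, n = 2), and the gap between the lower 3 h array and the highest other array was 0.51. For DEHA2G03410g they gave 0.92 and 1.18 at 3 h, 0.16 and -0.11 at 0.5 h, and 0.48 and 0.12 at 6 h. The mean at 3 h was 1.05 ± 0.19 (SD, n = 2), although its 2 probes read 1.32 and 0.78, the widest probe difference among the named members.

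The next 4 loci by 3 h mean rested mainly on replicate 2. DEHA2D09262g read 0.56 in replicate 1 and 1.36 in replicate 2 at 3 h, beside 0.58 and 0.24 at 0.5 h. DEHA2F10846g read 0.11 and 1.77 at 3 h, with 0.36 and 0.53 at 0.5 h and -0.09 and 0.04 at 6 h. In replicate 1 this locus was lower at 3 h than at 0.5 h, and its SD of 1.17 at 3 h exceeded its mean of 0.94. DEHA2A13574g read 0.27 and 1.61 at 3 h, and DEHA2D15158g read 0.50 and 1.36. Arrays of other times lay above the lower 3 h array of both, at 0.57 (0.5 h) and 0.37 (6 h) for DEHA2A13574g and at 0.55 (6 h) for DEHA2D15158g.

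**Figure D4:**
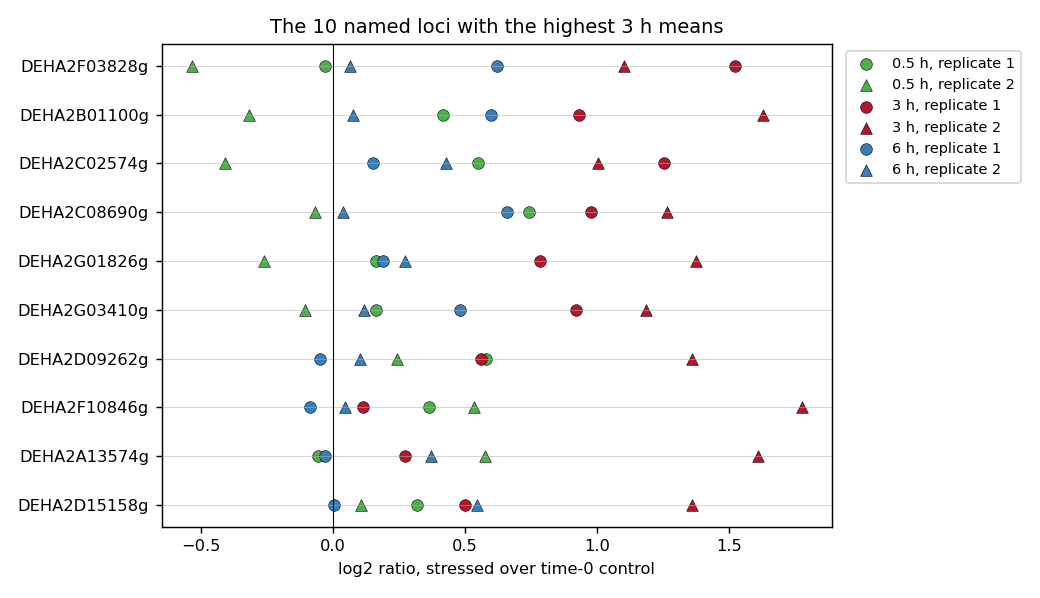
Log2 ratio of stressed over time-0 control RNA (horizontal) on each of the 6 arrays for the 10 named loci with the highest 3 h means (rows), coloured by time, with circles for replicate 1 and triangles for replicate 2. In the upper 6 rows both red 3 h symbols lie to the right of all others, and in the lower 4 rows the 3 h circle overlaps with other times.

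The locus with the largest gap between the 3 h arrays and the others was not among the highest. DEHA2G08448g read 0.72 and 0.76 at 3 h, 0.06 and 0.00 at 0.5 h, and 0.08 and 0.08 at 6 h. Its 3 h arrays agreed within 0.03 (SD, n = 2) and stood 0.64 above every other array. Its 2 probes gave 3 h means of 0.63 and 0.85, and its control channel was well above background in 2 of 4 values at 3 h. The size depended on the processing: the 3 h mean was 0.48 with no background correction, 0.47 in the deposited table and 1.66 with processed signals. It met the rule in 2 of the 5 other settings. DEHA2C05852g came next, at 1.12 and 0.60 at 3 h, against 0.02 and -0.41 at 0.5 h and 0.06 and -0.12 at 6 h, a gap of 0.54. DEHA2F16390g, at 0.77 and 0.86 at 3 h, had a gap of 0.45, and no array of 0.5 h or 6 h went above 0.32. For this locus too the probes differed, with 3 h means of 1.04 and 0.58.

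At the other end the shape was carried by 1 array. DEHA2D03366g read 0.05 and 1.38 at 3 h, 0.37 and 0.44 at 0.5 h, and -0.21 and 0.82 at 6 h. Its lower 3 h array was below 3 of the 4 other arrays, by 0.77 against the highest. DEHA2E22484g read 0.20 and 1.55 at 3 h and -0.31 and 0.63 at 0.5 h, and DEHA2E13156g 0.24 and 1.61 at 3 h with 0.36 and 0.59 at 0.5 h. In these loci each array of replicate 2 was above its counterpart in replicate 1. DEHA2F11066g and DEHA2F21032g had 3 h values of 0.25 and 1.27, and of 0.36 and 1.08, while their 0.5 h arrays of replicate 1 stood at 0.57 and 0.67.

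Only genes with a locus name were listed at the bounds. At the 3 h and 6 h bounds those just inside and just outside had nearly equal means. At 3 h DEHA2F16676g, DEHA2F21208g and DEHA2D11572g were inside at 0.70, 0.70 and 0.71. DEHA2F02860g, DEHA2E14454g and DEHA2D11264g were outside by less than the rounding allows to show, the first at 0.6992. At 6 h DEHA2C08690g was inside at 0.35 with DEHA2F03828g and DEHA2B01100g at 0.34, while DEHA2G03916g, DEHA2G20372g and DEHA2D15114g were outside at 0.37, 0.37 and 0.38. The 0.5 h bounds were less crowded. At the upper one DEHA2E13156g was inside at 0.48, with DEHA2A11528g and DEHA2F10846g at 0.45, and DEHA2F00990g and DEHA2B07744g were outside at 0.52 and 0.67, followed by DEHA2B05060g at 1.66. On the low side DEHA2F03828g, DEHA2C05852g and DEHA2G01826g were inside at -0.28, -0.19 and -0.05, well clear of -0.4, and DEHA2F10582g and DEHA2D14212g were outside at -0.60 and -0.75. A member without a locus name lay inside at -0.12. No gene with a locus name that met the other conditions failed on the sign of a 3 h array. The lowest array values inside were 0.05, 0.11 and 0.15 for DEHA2D03366g, DEHA2F10846g and DEHA2E07414g.

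A limma fit over the 6 arrays and 5966 genes showed how the loci stand among all genes. Against the time-0 control at 3 h, 22 of the 60 passed a Benjamini-Hochberg adjusted p of 0.05 as higher, where 3.74% of all genes tested did, and 59 had an unadjusted p under 0.05 (15.3%). With the replicate as a block, 49 of the 60 passed (8.28% of all genes). The choice asked for a high 3 h ratio, so nothing is read from these shares. For the differences between times, limma called 0 of the 60 loci as higher at 3 h than at 0.5 h and 0 as lower at 6 h than at 3 h, with 0 genes of the whole array called. At an unadjusted p under 0.05 there were 20 loci (4.74% of all genes) and 25 loci (4.46%), an excess that the choice itself fixes and from which nothing is read. With the block 0 loci were called for either difference, and over all genes 0.0168% were called higher at 3 h than at 0.5 h. No locus of the 60 was thus shown by the adjusted test to differ between 3 h and another time, which does not show that they were equal.

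The 3 h estimate changed with the 3 h array that was kept. With a 3 h array left out, the other one is alone in its group. Its own error is then assumed to be like that of the other times, so nothing is read from calls in such fits. Only the range of these calls is listed, in the closing section on processing. Without the 3 h array of replicate 2 the median 3 h log2 ratio of the 60 loci was 0.50. Without that of replicate 1 it was 1.12. The medians of these single arrays over all genes were 0.01 and -0.01. Leaving out an array of 0.5 h or 6 h does not change the 3 h estimate, whose median stayed at 0.79. It does change the spread pooled over the times. Fewer of the loci and of all genes were then called at 3 h than with all 6 arrays in the same fit. Those counts are not given, since the time that lost an array has a lone one. With all 6 arrays, a trended and robust moderation in limma called 0 genes at 3 h, among the loci and over all genes. All 60 loci were higher at an unadjusted p under 0.05 in that fit, as were 915 of the 5966 genes tested. The choice asked for a high 3 h ratio, so this too is read no further.

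The 2 probes of a locus share their RNA, and the choice was made on their mean, so their values are a description and no separate evidence. All 60 loci had both probes positive on both 3 h arrays, as had 22.1% of all genes. Each probe alone reached a 3 h mean of 0.7 for 32 of the 60 (4.49% of all genes), and 22 met every condition with either probe taken alone. A gene that does so also meets them on the mean of its probes. The 0.348% of all genes that did so are therefore these same 22 and give no background share. The probe difference at 3 h had a median of 0.16 among the 60 and 0.13 over all genes. Besides DEHA2G03410g and DEHA2F16390g, it was widest for DEHA2A04532g, with probe means of 1.04 and 0.54, and for DEHA2C07194g, with 1.13 and 0.64. The 2 probes of a member thus had the same sign at 3 h, with differences in size.

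Signal strength limited the control channel more than the stressed one. In the stressed channel of all 6 arrays both probes exceeded background clearly for 58 of the 60 loci (63.3% of all genes). In the control channel this held for 27 (46.0%), and on both 3 h arrays for 38 (53.1%). For 6 loci at most 6 of the 12 control values were well above background, against 29.4% of all genes. DEHA2F16632g, DEHA2B01760g, DEHA2E07414g, DEHA2E09988g and DEHA2F06468g were among these 6, with 4, 4, 5, 6 and 6 such values, and their ratios rest on a dim control. No value of any gene was saturated.

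The loci were spread over the genome. All 7 nuclear chromosomes held some, from 5 each on chromosomes B and C to 12 on chromosome F and 10 on chromosome G, which is between 0.685% and 1.20% of the named genes of each. In the order of protein-coding loci no 2 of the 52 were next to each other, where 1.66% of named genes lay next to one of them. The closest pair was DEHA2F16632g and DEHA2F16676g, with 1 locus between. DEHA2F16632g read 0.55 and 1.10 at 3 h and DEHA2F16676g read 0.35 and 1.06, while DEHA2F16654g between them read -0.04 and 0.35. The locus between was thus not above the control on both 3 h arrays. None of the 52 lay among the 20 loci at a chromosome end, where 4.11% of named genes lie.

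Next to the members, 89 genes were measured on the array. Their 3 h means had a median of 0.02, against -0.00 over all genes, and 6 of the 89, or 6.74%, reached 0.7, against 5.55% of all genes. Those 6 were chosen after their values were seen. DEHA2C02552g, next to DEHA2C02574g, had means of 1.93 at 3 h and 1.46 at 6 h, and DEHA2A11044g, next to DEHA2A11066g, had 1.75 and 1.61. Their neighbours among the 60 were near the control again by 6 h and they were not. DEHA2E09966g, beside DEHA2E09988g, and DEHA2A11506g, beside DEHA2A11528g, were higher at 6 h, at 2.15 and 1.78, than at 3 h, at 1.96 and 1.15. DEHA2F21054g and DEHA2F26818g read 1.32 and 0.77 at 3 h.

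The named members had a median gene length of 1402.5 bases in the reference, from 153 for DEHA2G23364g to 5574 for DEHA2B01100g. The median was 1176 over the 5348 named genes and 1266 over the named genes still higher at 6 h. The mean GC content of their probes had a median of 39.2%, against 38.3% over all genes. These are descriptions of a list picked by its ratios and carry no test.

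**Figure D5:**
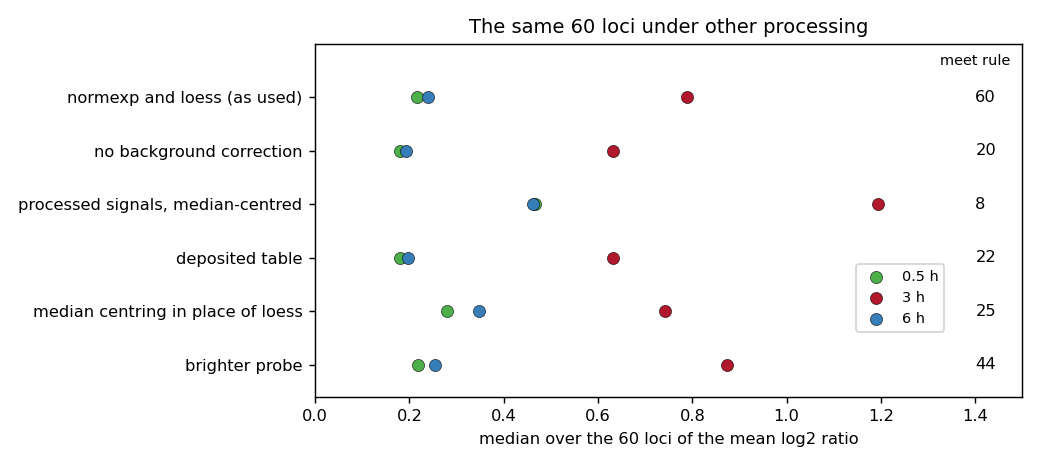
Median over the same 60 loci of the mean log2 ratio (horizontal) at 0.5, 3 and 6 h under 6 ways of processing (rows), with the number that still met the rule at the right. The 3 h median stays highest in each row, from 0.63 to 1.19, while the number meeting the rule runs from 60 down to 8.

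The membership itself shifted with the processing. With no background correction 20 of the 60 met the same conditions, and the deposited table of log2 ratios gave 22, since 40 and 38 of the loci then fell short of 0.7 at 3 h. With the scanner software's processed signals 8 did, because 42 exceeded the 6 h bound and 29 the upper 0.5 h bound. Over all genes the conditions were met by 26, 29 and 65 in these settings, in the order given. Each locus had a positive 3 h mean in all of these settings, and the 3 h median stayed above those at 0.5 h and 6 h. The settings process the same arrays that the choice used, so this is no separate evidence and is read no further. In 5 other settings together, 2 genes met the rule throughout, neither with a locus name, and 7 met it in 4, named after their counts were seen: DEHA2A13574g, DEHA2D09262g, DEHA2G01826g, DEHA2F10846g, DEHA2C05852g, DEHA2G02838g and 1 without a locus name.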

How the data were processed

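The scanner software was Feature Extraction, version 9.1.3.1, as stated per the file headers, and the deposited intensities include pixel medians of spot and local background and processed signals. The deposited log10 ratios of red over green were not used. The deposited series table holds log2 ratios, for which limma is named in the submitters' processing notes; its scale and direction were found by comparison with loess-normalized signals without background correction (r from 0.988 to 0.996, slopes 1.01 each). Its column medians lay between -0.0109 and 0.0106, and how it was normalized in detail is unknown here.

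Median signals were corrected with normexp (offset 50) and loess-normalized within arrays in limma 3.58.1 (R 4.3.3), control spots at weight 0. The 18 outlier values were left out, which left the same 60 loci as keeping them. Ratios were turned to stressed over control and averaged over a gene's probes. Tested genes had a probe that was well above background in 2 or more of its 12 channel values. The fit had 1 coefficient per time, with lmFit and eBayes. Accessions were matched without version to assembly ASM644v2, used for names and order. Arrays shared 1 slide and 1 scan. Of the 12640 probes, the stressed channel had 76.4% to 91.9% well above background and the control channel 62.4% to 93.4%. The number of arrays limits the precision.

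Across genes, arrays of the same number had deviations from the time means that correlated at 0.21 (0.5 and 3 h), 0.35 (3 and 6 h) and 0.32 (0.5 and 6 h); the numbers follow the dye orientation in the titles, and the labels name no shared culture. Members, gene lists and tests were chosen with earlier results of these data known. Named loci were, by rule, the 10 highest 3 h means, the 6 largest and 6 smallest gaps between 3 h and other arrays, the 4 widest probe differences, neighbouring members, and 3 genes either side of each bound. Others were named after their values were seen. A p-value sets an estimate against the spread between arrays of the same time, pooled over the times and moderated across genes. Without the block that spread also holds any difference between the dye orientations.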

Additional observations from a re-analysis of the deposited data

Results flagged for a closer look

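In 2 loci both 3 h arrays were above the control and both arrays of 1 other time were below it. That time was 0.5 h for DEHA2F03828g and 6 h for DEHA2D09746g. For DEHA2F03828g the 3 h mean exceeded the 0.5 h mean by 1.59, with the limits on its ratio given above. For DEHA2D09746g the 3 h mean exceeded the 6 h mean by 1.09: its arrays read 0.33 and 1.21 at 3 h and -0.38 and -0.25 at 6 h. At 0.5 h they read 0.33 and -0.08, so in replicate 1 it stood as high at 0.5 h as at 3 h. Both differences were part of the limma fit, which called neither.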

How the results depend on the processing

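The count of 22 loci called at 3 h was 3 with no background correction, 11 with processed signals, 1 with the deposited table, 7 with median centring, 0 with trended and robust moderation and 49 with the replicate block. It ran from 0 to 53 when 1 array was left out, both with a lone 3 h array whose spread is assumed to be like that of the other times. Calls over all genes moved the same way in the fits with a lone 3 h array. They were fewer at the low end and more at the high end than with all 6 arrays. The range is thus not particular to the loci, and nothing is read from it. Of all 5966 genes tested, 223 were called higher in the main fit. With the alternatives, in the same order, 41, 142, 33, 127, 0 and 494 were. With the brighter probe 23 loci passed (243 of 5966 genes), with all genes tested 19 (217 of 6320), and with outlier spots kept 22 (223 of 5966). Differences between times called 0 loci in every setting run. The rule was met by 20 loci with no background correction, 8 with processed signals, 22 with the deposited table, 25 with median centring and 44 with the brighter probe. Over all genes it was met by 26, 65, 29, 41 and 89 in the same order. With 1 array left out it was met by 12 to 58 of the loci, the lowest without the 3 h array of replicate 2. Over all genes 24 met it without that array, and 231 without the 3 h array of replicate 1. The count of 32 loci with 3 h above all other arrays was 20 with processed signals and between 24 and 32 in the other settings. Over all 6320 genes it was 593 as used, 475 with processed signals and between 510 and 664 in the other settings. The cause of these shifts was not tested beyond the bounds named above. With 2 arrays per time, and 27 of 60 loci well above background in every control value, precision is limited.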
